A study of Mus musculus with 20 samples.

Results

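The carbonic anhydrase genes *Car2*, *Car3*, *Car4*, *Car5b*, *Car12*, *Car13*, *Car14* and *Car15* were examined in whole mouse kidneys, as 8 of the 24411 genes in the count table. They were chosen by name, and *Car3* was selected on its values in these kidneys, for its fall in male mutants and its high level in 1 library with fat RNA. Its values are therefore given as a description, with no test in any comparison, and calls are counted over the other 7 genes. RNA was sequenced from 1 library per mouse at P125, with 5 mice of an inbred C57BL/6 background in each of 4 groups: male controls (MC1 to MC5), male mutants (MM1 to MM5), female controls (FC1 to FC5) and female mutants (FM1 to FM5). Mutants were Pkd2fl/fl with Pax8 rtTA and Tet-O-Cre, so that the deletion was confined by design to cells in which the Pax8 promoter is active, the renal tubules. Controls were littermates without rtTA or Cre, and all 20 mice had received 50 mg/kg Doxycycline Hyclate daily from P27 to P29. The mice came from 3 litters, A, B and C. Each litter also had its own leading number in the library names, so litter and whatever that number marks cannot be told apart.

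Carbonic anhydrases interconvert carbon dioxide and water with bicarbonate and a proton. In the kidney they serve the recovery of filtered bicarbonate in the proximal tubule and the secretion of acid or base by intercalated cells of the collecting duct. *Car2*, *Car3* and *Car13* encode cytosolic enzymes, *Car5b* a mitochondrial one, *Car4* and *Car15* enzymes held at the cell surface by a lipid anchor, and *Car12* and *Car14* transmembrane enzymes. *Car3* is a slow member of the family that is abundant in fat, muscle and liver.

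Total counts per library ranged from 11307741 to 19324073. FM4 stood apart, with 14850 genes detected and 76 genes at a single count, against 16776 to 17724 and 708 to 859 in the other 19 libraries. FM3 stood apart by its fat markers, and results that rest on either library are given without it. Of the 40 pairs of libraries within groups, 0 were identical, and all differed by more than sampling noise (chi-square per degree of freedom of at least 5.48). *Pkd2* was 2.50-fold lower in male mutants than in male controls (adjusted p = 2.2e-05, edgeR) and 1.74-fold lower in female mutants (adjusted p = 0.0276). The 6 proximal tubule markers summed to at least 5349 CPM (counts scaled to library size) in every library.

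All 8 genes were matched by symbol to the GENCODE M21 annotation of GRCm38. *Car13*, *Car1*, *Car3* and *Car2* lie in this order on chromosome 3, within 259044 bases, *Car1* on the minus strand and the others on the plus strand. *Car3* (chr3:14863512-14872523) ends 13749 bases before *Car2* (chr3:14886273-14900770) begins, and *Car13* lies at chr3:14641727-14663002. *Car14* lies elsewhere on that chromosome (chr3:95897768-95904691, minus strand). *Car4* lies at chr11:84957786-84966044 and *Car12* at chr9:66713686-66766845, both on the plus strand. *Car15* (chr16:17835276-17838364) and the X-linked *Car5b* (chrX:163976822-164027997) are on the minus strand. Exons of *Car14* overlap those of *Aph1a* on the other strand within a stretch of 521 bases, and *Aph1a* averaged 97.3 CPM. *Car15* is overlapped over 3088 bases by *Gm20518* on the same strand, which is no row of the count table. The strandedness of the counting is not given in the sources used here, so the values of *Car14* and *Car15* are uncertain to that extent.

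Of the 8 genes, 5 had an entry in the RefSeq promoter table (GRCm38.p6). The 250 bases before the RefSeq start are shown for *Car4*, *Car12* and *Car5b*, which carried a call in at least 1 comparison below and whose window lies wholly before the GENCODE gene. Capitals mark CCAAT and GGGCGG (the CCAAT and GC boxes, common promoter elements) on either strand, and each run reads 5′ to 3′ on the strand of the gene. The first is chr11:84957504-84957753 (plus strand), the second chr9:66713436-66713685 (plus strand) and the third chrX:164028011-164028260 (minus strand).
Car4: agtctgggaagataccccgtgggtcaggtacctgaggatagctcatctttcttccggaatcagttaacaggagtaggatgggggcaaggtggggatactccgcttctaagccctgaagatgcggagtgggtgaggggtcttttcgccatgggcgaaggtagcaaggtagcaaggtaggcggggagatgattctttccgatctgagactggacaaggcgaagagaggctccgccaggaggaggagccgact
Car12: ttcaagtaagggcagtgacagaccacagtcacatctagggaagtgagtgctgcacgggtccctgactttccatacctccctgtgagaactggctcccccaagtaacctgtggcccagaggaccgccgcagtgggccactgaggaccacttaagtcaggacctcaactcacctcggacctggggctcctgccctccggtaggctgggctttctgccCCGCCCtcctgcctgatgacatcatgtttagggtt
Car5b: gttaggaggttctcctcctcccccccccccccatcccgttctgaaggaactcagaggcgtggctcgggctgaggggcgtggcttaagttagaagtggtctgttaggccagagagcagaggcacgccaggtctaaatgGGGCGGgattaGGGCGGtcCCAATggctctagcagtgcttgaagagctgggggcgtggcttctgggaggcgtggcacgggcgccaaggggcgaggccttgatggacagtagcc
The *Car12* window held 1 GC box, read on the opposite strand, 35 bases before the start. The *Car5b* window held 2 GC boxes, 113 and 102 bases before the start, and 1 CCAAT box 94 bases before it. The *Car4* window held neither box. TATAAA was found on neither strand of any of the 5 windows. Of 32851 windows of this length, 12.4% held TATAAA, 33.8% held CCAAT and 32.7% held GGGCGG, searched on both strands, and the 3 motifs share no overlapping match in the windows shown.

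Per exon length, *Car2* was the most abundant of the 8 genes, with a mean of 163 CPM per kilobase of exon (RPKM) over all 20 mice. *Car4* followed at 79.6, *Car15* at 55.2, *Car12* at 38.8, *Car14* at 25.5, *Car3* at 16.7, *Car5b* at 14.1 and *Car13* at 1.79 RPKM. Of the neighbours in this order, *Car5b* and *Car13* were the one pair whose ranges over all mice did not overlap. The order changed with sex: *Car4* was second in male controls (120 RPKM) and above *Car15* (57.3) with no overlap, whereas in female controls *Car15* (78.7) and *Car4* (67.7) overlapped. The coefficient of variation of CPM over all 20 mice was 137% for *Car3*, 52.9% for *Car13* and between 19.8% and 37.2% for the other 6 genes.

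**Figure D1:**
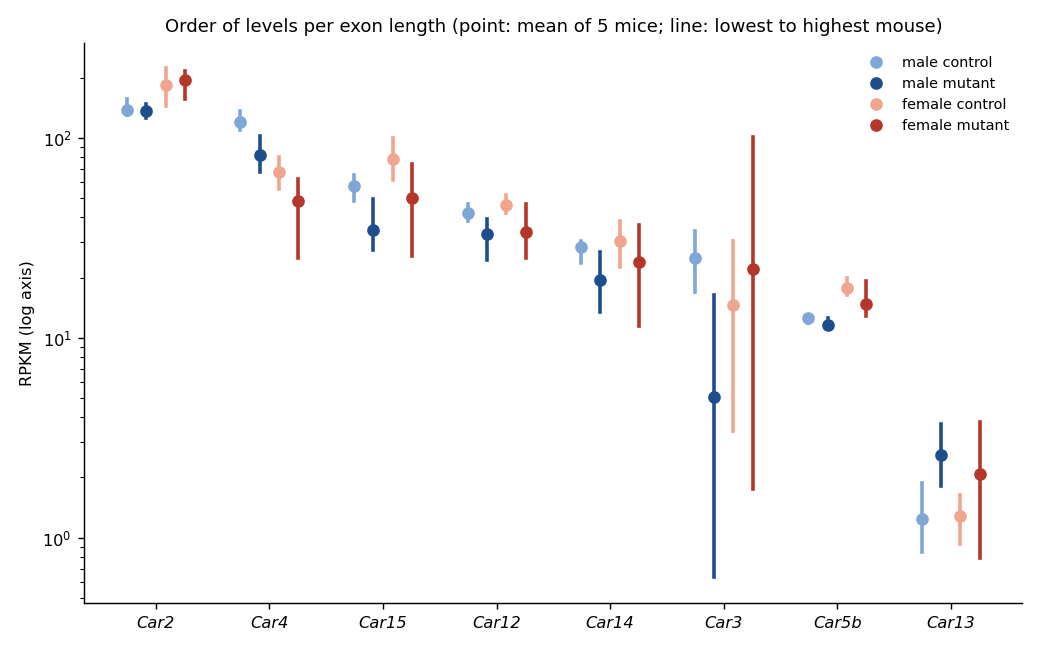
Levels per exon length of the 8 genes in the 4 groups (RPKM, log axis). Points are means of 5 mice and lines run from the lowest to the highest mouse. Car2 is highest in every group, and the line of Car3 in female mutants reaches above 100 RPKM through 1 mouse.

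Mutants were first compared with controls within males, to ask which of these genes differ in kidneys that lack *Pkd2* in the tubules. In males, the surface enzymes *Car4* and *Car15* fell. At an adjusted p under 0.01, 2 of the 7 genes were called, both lower, against 8.46% of all 14010 genes tested in either direction and 3.20% lower. Their median log2 fold change was -0.38, against -0.0020 over all genes tested, and 1 of the 7 lay above 0.

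*Car4*, a surface enzyme of the proximal tubule brush border, stood at 215, 216, 255, 225 and 268 CPM in male controls and at 147, 200, 147, 132 and 185 CPM in male mutants. The groups did not overlap. The share of all genes without overlap was not counted in any comparison, so a lack of overlap adds nothing to the tests here or below. The log2 fold change was -0.52 ± 0.0961 (SE, n = 5 against 5, edgeR adjusted p = 0.00442), or 1.43-fold lower. *Car15* stood at 124, 105, 121, 92.5 and 103 CPM in male controls and at 52.2, 94.0, 53.3, 62.2 and 69.8 CPM in male mutants. The groups overlapped by 1 mouse, MM2, which lay just above MC4. The log2 fold change was -0.66 ± 0.132 (SE, edgeR adjusted p = 0.00610), or 1.58-fold lower. Compared within each litter, in the order A, B, C, mean log2 CPM differed by -0.73, -0.68 and -0.57 for *Car15* and -0.41, -0.69 and -0.53 for *Car4*. Litter C gave a single mouse on each side among the males, so its values carry no error.

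The other 5 genes did not pass in males. *Car12*, a transmembrane enzyme of the collecting duct, stood at 314, 292, 332, 353 and 310 CPM in controls and 186, 284, 247, 240 and 298 CPM in mutants (log2 fold change -0.38 ± 0.110, edgeR adjusted p = 0.0315). *Car14*, a transmembrane enzyme of the proximal tubule, stood at 76.1, 77.9, 74.8, 72.0 and 60.4 CPM in controls and 34.2, 68.2, 41.3, 43.5 and 58.6 CPM in mutants (-0.53 ± 0.161, adjusted p = 0.0389). In both genes all mutants but 1, MM5 for *Car12* and MM2 for *Car14*, lay below every control. The cytosolic *Car13* was the one tested gene with a positive value, 1.08 ± 0.275 on the log2 scale (edgeR adjusted p = 0.0182), from 4.32, 2.80, 2.25, 1.95 and 2.90 CPM in controls to 8.48, 4.31, 7.40, 5.22 and 4.18 CPM in mutants. It was also the scarcest gene, with 21 to 172 counts per library over all mice. *Car5b* had a log2 fold change of -0.11 ± 0.0579 (edgeR adjusted p = 0.210) and *Car2* one of -0.03 ± 0.0678 (adjusted p = 0.810, 95% interval -0.18 to 0.12). MM1, whose kidney weight of 595.8 mg was the highest of the 20, had the lowest *Car12*, *Car14* and *Car15* and the highest *Car13* among the male mutants.

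The number of calls in males depended on the mice. Leaving out 1 mouse gave 0 calls without MC3, MC4, MC5, MM3, MM4 or MM5, 1 without MC1 or MC2, 2 without MM1 and 5 without MM2, and 1 fit over all 20 mice gave 0. Calls over all genes moved in these fits too, from 1185 of 14010 in the main fit. They were 187 of 14161 without MC4, 477 of 14158 without MC3 and 781 of 14097 without MM4. Without MM1 they were 884 of 14086, without MM2 1863 of 14133, and in 1 fit over all 20 mice 878 of 14820. Over these and the other alternatives, 16 in all, the log2 fold change stayed between -0.63 and -0.44 for *Car4* and between -0.84 and -0.51 for *Car15*.

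In females the same genes had values of like size with wider errors. Of the 7 genes, 0 were called by edgeR, against 0.637% of all 14439 genes tested. DESeq2 also called 0 of the 7, against 950 of 15282 genes. At an unadjusted p under 0.05, 3 of the 7 passed (*Car4*, *Car12* and *Car15*), against 20.6% of all genes. The median log2 fold change of the 7 was -0.36, against -0.0029 over all genes tested.

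*Car15* stood at 138, 189, 151, 117 and 155 CPM in female controls and at 142, 93.3, 48.8, 89.4 and 104 CPM in female mutants. All mutants but FM1 lay below every control, and the log2 fold change was -0.68 ± 0.215 (SE, n = 5 against 5, edgeR adjusted p = 0.0960). *Car4* stood at 129, 121, 109, 149 and 158 CPM in controls and at 119, 82.3, 49.1, 123 and 101 CPM in mutants (log2 fold change -0.48 ± 0.203, edgeR adjusted p = 0.208). *Car12* stood at 321, 379, 330, 394 and 328 CPM in controls and at 246, 222, 191, 353 and 269 CPM in mutants (-0.43 ± 0.150, edgeR adjusted p = 0.125). For *Car12*, FM4 was the one mutant inside the range of the controls. *Car14* stood at 72.1, 80.9, 57.2, 79.5 and 97.6 CPM in controls and at 52.2, 39.7, 28.97, 92.7 and 91.5 CPM in mutants. Its mutants fell apart, with FM1, FM2 and FM3 below every control and FM4 and FM5 above all but the highest, and its log2 fold change was -0.36 ± 0.256 (edgeR adjusted p = 0.485).

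*Car13* stood at 3.10, 3.11, 3.77, 2.56 and 2.13 CPM in female controls and at 6.87, 4.50, 8.71, 1.81 and 1.94 CPM in female mutants. The same 3 mutants, FM1, FM2 and FM3, lay above every control, whereas FM4 and FM5 lay below (log2 fold change 0.67 ± 0.388, edgeR adjusted p = 0.369). FM3, the library with fat marker RNA, had the lowest *Car4*, *Car12*, *Car14* and *Car15* and the highest *Car13* among the females. Without FM3 the log2 fold change was 0.26 for *Car13*, -0.34 for *Car4*, -0.35 for *Car12*, -0.20 for *Car14* and -0.52 for *Car15*. Without FM4 it was 0.90 for *Car13*, -0.66 for *Car4*, -0.58 for *Car12* and -0.68 for *Car14*. Without both FM3 and FM4 it was 0.56 for *Car13*, and 0 of the 7 genes were called, against 514 of all 14669 genes. Kidney weight and markers of other cells set the same mice apart, and their part in these values was not tested. Kidneys weighed 346.1, 254.6 and 302 mg in FM1, FM2 and FM3, and 166.7 and 200 mg in FM4 and FM5. The 6 proximal tubule markers summed to 8172 to 8917 CPM in female controls, to 5349, 5996 and 5603 in FM1, FM2 and FM3, and to 10127 and 8909 in FM4 and FM5. The 6 macrophage markers summed to 127 to 164 CPM in female controls, to 421, 283 and 489 in FM1, FM2 and FM3, and to 130 and 186 in FM4 and FM5. *Car2* had a log2 fold change of 0.12 ± 0.132 (edgeR adjusted p = 0.691) and *Car5b* one of -0.24 ± 0.117 (adjusted p = 0.288).

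The difference between the sexes in the response to the mutation was tested as a sex-by-genotype term over all 20 mice. Of the 7 genes, 0 were called by edgeR or DESeq2 and 0 had an unadjusted p under 0.05, against 0% of all 14820 genes at the adjusted threshold and 4.17% at the unadjusted one. For *Car4* the term was -0.01 on the log2 scale (95% interval -0.55 to 0.52), for *Car15* 0.04 (-0.56 to 0.64) and for *Car12* 0.08 (-0.36 to 0.52). For *Car4* and *Car12* these intervals hold differences between the sexes as large as the changes themselves.

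With both sexes in 1 fit, *Car4*, *Car12* and *Car15* fell in mutants. Of the 7 genes 3 were called, all lower, against 15.9% of all 14191 genes in either direction and 5.86% lower. *Car15* had a log2 fold change of -0.67 ± 0.138 (SE, 10 against 10, edgeR adjusted p = 0.00142), *Car4* one of -0.50 ± 0.123 (adjusted p = 0.00539) and *Car12* one of -0.41 ± 0.101 (adjusted p = 0.00568), or 1.59-fold, 1.41-fold and 1.33-fold lower. *Car13* missed the threshold with a log2 fold change of 0.86 ± 0.247 (edgeR adjusted p = 0.0141), as did *Car14* with -0.44 ± 0.169 (adjusted p = 0.0611) and *Car5b* with -0.18 ± 0.0694 (adjusted p = 0.0644). *Car2*, the most abundant gene, had 0.04 ± 0.0758 (edgeR adjusted p = 0.723, 95% interval -0.12 to 0.20). The mice of this fit are those of the comparisons within each sex. *Car15* was called in all 26 alternatives, and *Car4* and *Car12* in 18 each. *Car15* was the 1 gene called without FC4, FM2, MC4 or MM4, whereas 6 of the 7 were called without FM4 and 5 without both FM3 and FM4. Over all genes, 1856 of 14252 were called without FC4, 2031 of 14249 without FM2, 1656 of 14288 without MC4 and 2016 of 14266 without MM4. Without FM4 the count was 2994 of 14274, and without both FM3 and FM4 it was 2561 of 14286.

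**Figure D2:**
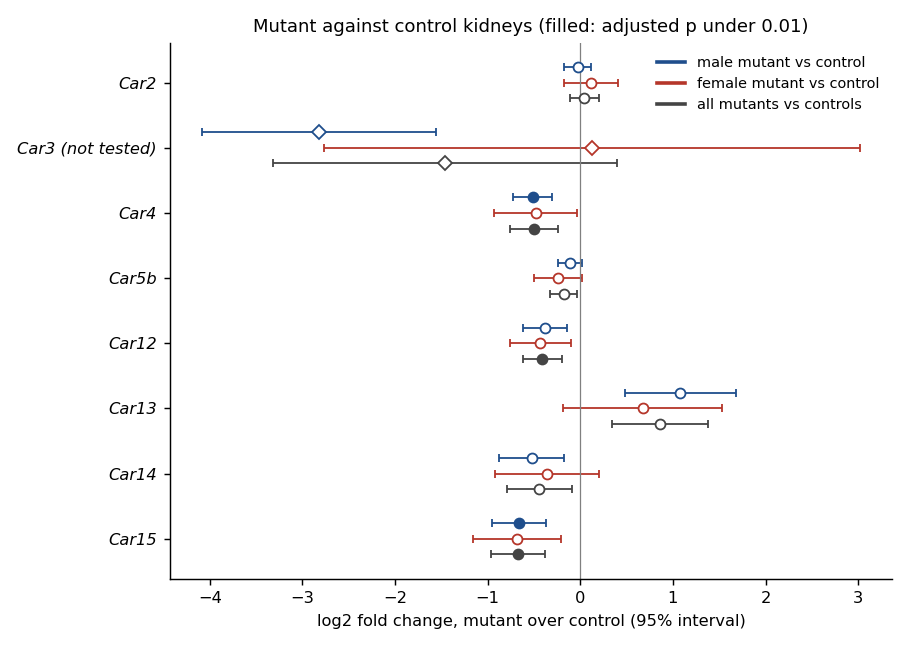
Log2 fold changes of mutants over controls with 95% intervals, in males, in females and in both. Filled symbols have an adjusted p under 0.01, and Car3 (diamonds) was not tested. The intervals of Car3 are those of a gene chosen by its values and cannot be read as a test. Car4, Car12, Car14 and Car15 lie below 0 and Car13 above 0 in all 3 comparisons, and the intervals in females are the wider ones within a sex.

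Of a list of 30 other genes of bicarbonate, proton and ammonia handling, 29 were tested in males, where 0 were called higher and 13 lower, against 3.20% of all genes lower, with a median log2 fold change of -0.50. In females 0 of 30 were called by edgeR (median -0.38), with 17 lower and 0 higher at an unadjusted p under 0.05, against 20.6% of all genes in either direction. With both sexes 0 of 29 were called higher and 16 lower, against 5.86% of all genes lower (median -0.52). The 4 with the smallest p in the joint comparison were the ammonia transporter gene *Rhbg* (log2 fold change -0.86 ± 0.116, edgeR adjusted p = 4.4e-05), the chloride-bicarbonate exchanger of intercalated and red blood cells *Slc4a1* (-1.26 ± 0.179, adjusted p = 6.3e-05), the proton pump subunit *Atp4a* (-1.10 ± 0.174, adjusted p = 0.000171) and the vacuolar proton pump subunit *Atp6v0d2* (-0.52 ± 0.0861, adjusted p = 0.000221). *Slc4a1* ranged from 43.6 to 60.3 CPM in male controls and from 12.2 to 24.7 in male mutants, and from 59.1 to 85.7 in female controls and from 15.7 to 56.4 in female mutants. It did not overlap between mutants and controls in either sex, but it was named for its small p, so this adds nothing to the test.

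Markers of other cells moved with these falls, and their part in them was not tested. Of 8 intercalated cell markers, 6 of which are also in the list of 30, 6 were called lower in males and 7 with both sexes. The shares of all genes called lower were 3.20% in males and 5.86% with both sexes. The intercalated cell markers summed to 584 to 659 CPM in male controls and 283 to 472 in male mutants. In females they summed to 767 to 861 CPM in controls and 314 to 667 in mutants. Of 3 markers of the distal convoluted tubule and thick ascending limb, 2 were called lower in males and 3 with both sexes. Of 6 proximal tubule markers 0 were called by edgeR in males, in females or with both sexes, and 1, 0 and 2 had an unadjusted p under 0.05, with sums of 9673 to 10578 CPM in male controls and 7035 to 11020 in male mutants. All 6 macrophage markers were called higher with both sexes, 5 of them in males (98.0 to 113 CPM summed in male controls, 147 to 353 in male mutants). Of the other lists, with both sexes, 2 of 4 principal cell markers and the 1 tested erythroid marker, *Alas2*, were called lower, as was *Cpt1b*. *Cpt1b* was the 1 tested of 5 brown fat markers and did not stand for its list. In FM3 it was at its lowest, 0.0506 CPM, whereas the 5 summed to 14.6 CPM there. The sums overlapped, at 1.20 to 2.92 CPM in male controls, 0.197 to 3.37 in male mutants, 2.35 to 14.8 in female controls and 0.858 to 14.6 in female mutants. By edgeR 0 of 5 endothelial, 0 of 1 tested adrenal, 0 of 4 tested adipose and 0 of 2 tested skeletal muscle markers were called with both sexes, and 5, 0, 1 and 0 of them had an unadjusted p under 0.05. The 5 endothelial markers split in direction, 3 higher and 2 lower. In males 2 of the 5, *Pecam1* and *Plvap*, were called higher, against 8.46% of all genes called in either direction. In whole kidney, fewer cells of a type and less RNA per cell cannot be told apart.

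Males were then compared with females within each genotype. In controls, *Car4* was higher in males and *Car5b* higher in females. Of the 7 genes 2 were called, 1 higher and 1 lower in males, against 17.8% of all 14123 genes in either direction, 8.75% higher and 9.02% lower. These control mice also serve in the comparisons with mutants above.

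*Car4* stood at 236 ± 24.3 CPM in male controls and 133 ± 20.3 CPM in female controls (SD, n = 5 each), with no overlap. The log2 fold change of males over females was 0.86 ± 0.0958 (SE, edgeR adjusted p = 4.0e-05), or 1.81-fold higher, and it was called in all 16 alternatives. *Car5b* stood at 79.4 ± 3.03 CPM in male controls and 112 ± 9.72 CPM in female controls, again with no overlap. Its log2 fold change was -0.46 ± 0.0781 (SE, edgeR adjusted p = 0.000866), or 1.38-fold lower in males, and the adjusted p was 0.0123 without MC4. *Car2* (-0.40 ± 0.104, edgeR adjusted p = 0.0129) and *Car15* (-0.46 ± 0.139, adjusted p = 0.0250) had negative values that did not pass. DESeq2 called 4 of the 7 genes, against 2989 of 15145 genes. *Car12* (log2 fold change -0.01, 95% interval -0.17 to 0.15), *Car14* (-0.10, -0.40 to 0.19) and *Car13* (-0.08, -0.67 to 0.51) did not pass either.

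In mutants, 1 of the 7 genes was called, lower in males, against 5.42% of all 14416 genes in either direction and 1.84% lower. That gene was *Car2*, the cytosolic enzyme of proximal tubule and intercalated cells, at 356, 321, 332, 328 and 306 CPM in male mutants and 521, 490, 381, 524 and 455 CPM in female mutants. The groups did not overlap, and the log2 fold change was -0.53 ± 0.109 (SE, edgeR adjusted p = 0.00995), just past the threshold. It was not called without any 1 of FM1, FM2, FM5 or the 5 male mutants, nor without the filter on low counts. *Car4* (0.72 ± 0.212, edgeR adjusted p = 0.0458) and *Car5b* (-0.32 ± 0.124, adjusted p = 0.109) did not pass in mutants. Neither gene overlapped between the sexes there, but the share of all genes without overlap was not counted, so this adds nothing to the test. For *Car4* the lowest male mutant, at 132 CPM, lay above the highest female mutant, at 123 CPM. For *Car5b*, male mutants ranged from 71.5 to 79.4 CPM and female mutants from 81.7 to 123 CPM. Without FM4, the female mutant with the highest *Car5b*, 2 of the 7 genes were called, against 1330 of all 14576 genes. These were *Car2* (edgeR adjusted p = 0.00743) and *Car4* (adjusted p = 0.00543). *Car5b* was not called without FM4 (log2 fold change -0.22, edgeR adjusted p = 0.0563).

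**Figure D3:**
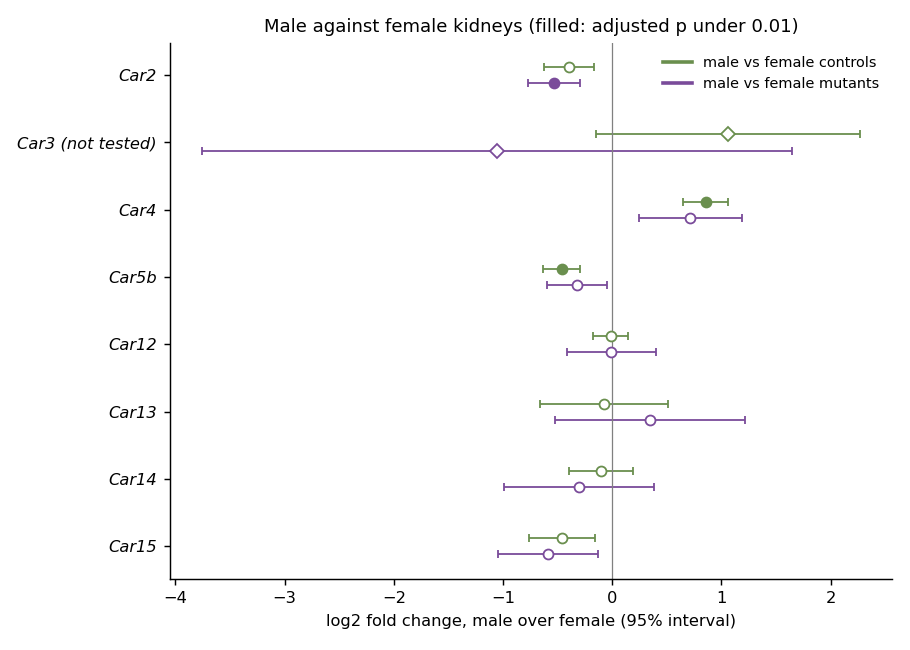
Log2 fold changes of males over females with 95% intervals, in controls and in mutants. Filled symbols have an adjusted p under 0.01, and Car3 (diamonds) was not tested. The intervals of Car3 are those of a gene chosen by its values and cannot be read as a test. Car4 lies above 0 and Car2, Car5b and Car15 below 0 in both genotypes.

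Markers of kidney cell types also differed between the sexes, and their part in these differences was not tested. In controls, 2 of 6 proximal tubule markers were called higher in males, against 8.75% of all genes tested. Called lower, against 9.02% of all genes, were 2 of 8 intercalated cell markers and 1 of 4 principal cell markers. So were 3 of 3 markers of the distal convoluted tubule and thick ascending limb, 3 of 6 macrophage markers and 5 of 5 endothelial markers. Among the 30 genes of bicarbonate, proton and ammonia handling, 0 were called higher and 11 lower in male controls than in female controls, against the same shares.

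Of the other 8 carbonic anhydrase genes in the table, 5 could be tested. *Car9*, a surface enzyme known as a target of the hypoxia response, was higher in males, at 15.6 ± 2.47 CPM in male and 4.85 ± 0.958 CPM in female controls (3.31-fold, edgeR adjusted p = 5.1e-06) and at 10.5 ± 3.47 and 4.00 ± 1.16 CPM in mutants (2.51-fold, adjusted p = 0.00784). The mitochondrial *Car5a* was lower in male than in female controls (2.21-fold, edgeR adjusted p = 0.00349), and with both sexes it was lower in mutants (1.83-fold, adjusted p = 0.00334), at 2.79 and 6.13 CPM in male and female controls and 1.89 and 2.96 CPM in male and female mutants. *Car8* (1.60-fold, edgeR adjusted p = 0.00501) and *Car11* (1.84-fold, adjusted p = 0.00544) were lower in male than in female controls. Both belong to the members of the family that lack catalytic activity. *Car5a* and *Car9* overlap antisense genes, so the limit on strandedness given for *Car14* holds for them too. *Car7* passed in none of these comparisons. Within females alone, *Car5a* had a log2 fold change of -1.14 ± 0.250 in mutants (edgeR adjusted p = 0.0276), which did not pass. *Car1*, the enzyme of red blood cells that lies between *Car13* and *Car3*, and *Car10* had 0 counts in every library, and *Car6* had at most 2.

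*Car3* was the gene that varied most. In male controls it stood at 80.2, 78.4, 48.8, 98.2 and 54.4 CPM and in male mutants at 1.81, 11.4, 4.33, 46.8 and 7.96 CPM. The groups did not overlap, and the mutant nearest to the controls was MM4. In female controls *Car3* stood at 22.3, 16.9, 87.0, 9.77 and 72.1 CPM and in female mutants at 6.71, 5.04, 289, 9.49 and 6.76 CPM. Of the female mutants, 4 lay below every female control, and the other, FM3, lay above all other mice.

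**Figure D4:**
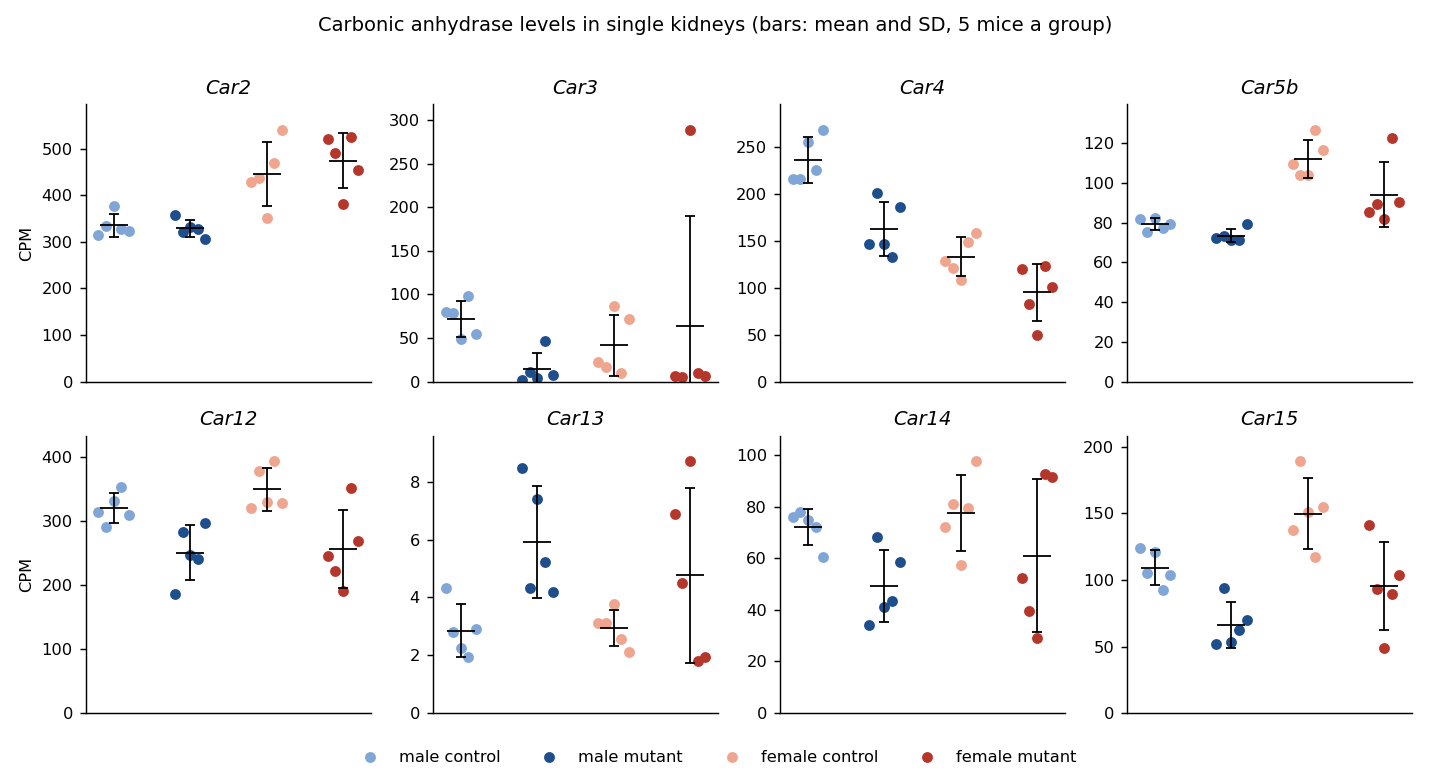
CPM of the 8 genes in every kidney, from 0, by group. Points are mice, and the bars are the mean and SD of 5 mice, with SD bars cut at 0. FM3 stands alone in the Car3 panel at 289 CPM, and the male groups do not overlap for Car3 or Car4.

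The difference of mean log2 CPM of *Car3* between mutants and controls was -3.08 in males and -1.03 in females, and without FM3 it was -2.10 in females. In males it was -3.84, -2.77 and -2.75 within litters A, B and C, and in females -1.71, -0.01 and -3.39, with -1.80 in litter B without FM3. The log2 fold change fitted to the counts was -2.82 in males and 0.12 in females. In females it was -2.49 without FM3. Male controls exceeded female controls by 1.06 on the fitted log2 scale, with overlap, and male mutants lay below female mutants by a fitted value of -1.06, which was 0.87 without FM3. The fitted sex-by-genotype term was -2.92, and -0.32 without FM3. All of these values touch on what *Car3* was chosen for and carry no p.

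Fat markers moved with *Car3*, and their part in its differences was not tested. All 8 adipose markers were highest in FM3, with a summed level of 718 CPM, against 59.7 to 250 CPM in the other 19 libraries. By group the sum ranged from 61.8 to 140 CPM in male controls, from 67.1 to 188 in male mutants and from 59.7 to 250 in female controls, and from 83.8 to 134 in the female mutants other than FM3. Within these sums, *Fabp4* alone stood at 53.5 to 131 CPM (median 73.7) in the libraries other than FM3. In FM3, *Cfd* stood at 322 CPM, the adipocyte hormone gene *Adipoq* at 40.3, *Plin1* at 24.4 and *Retn* at 26.9 CPM. In the other libraries, *Adipoq* had a median of 0.515 CPM and was at 0 in 6. Of 7 skeletal muscle markers, *Ckm* was at 0 in 17 of the 20 libraries, FM3 among them, and *Acta1* was at most 0.354 CPM. *Mylpf* was found in every library, at 1.82 CPM in FM3 and 0.590 to 2.53 CPM in the others. *Myh1* stood at 2.33 CPM in FM3 and at 0 to 8.16 CPM in the others. The muscle markers summed to 0.636 to 2.10 CPM in male controls, 0.903 to 1.47 in male mutants, 4.78 to 10.2 in female controls and 4.46 to 9.52 in female mutants. The 3 genes most like *Car3* over the 20 mice, among 13773 genes with a mean of at least 1 CPM, were *Retn*, *Adipoq* and *Plin1* (Pearson r of log2 CPM 0.827, 0.804 and 0.803). Without FM3, *Dhdh* and *Pkd2* came first (0.810 and 0.810), and r with *Adipoq* was 0.748. These r describe mice that differ in sex, genotype and litter. They also draw on the values that *Car3* was chosen for, its level in FM3 and its fall in male mutants. The ranking is therefore a description and no support for a link.

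*Adipoq* was under 1 CPM in 13 libraries, a limit chosen after the values were seen. The limit did not follow the adipose sum: FM2 and MM1, with sums of 134 and 119 CPM, were under it, whereas MC1 and MC2, with 86.8 and 84.5 CPM, were not. *Fabp4* alone gave 131 and 118 CPM of the sums in FM2 and MM1, and 64.3 and 67.6 CPM in MC1 and MC2. *Cfd* stood at 0.240 and 0.0565 CPM in FM2 and MM1, and at 10.6 and 7.44 CPM in MC1 and MC2. Among the 13 libraries under the limit, *Car3* stood at 48.8 and 54.4 CPM in 2 male controls and at 1.81 to 11.4 CPM in 4 male mutants. In females under the limit it stood at 9.77 to 22.3 CPM in 3 controls and at 5.04 to 9.49 CPM in 4 mutants. Controls did not overlap with mutants of their sex there, but *Car3* was chosen for its fall in male mutants, and only 2 male controls remained. The lack of overlap is therefore a description, and the part of fat RNA was not tested. Over these mice the difference of mean log2 CPM between mutants and controls was -3.28 in males and -1.16 in females. MC3 had 0 counts of *Adipoq* and *Plin1* and *Car3* at 48.8 CPM. The female controls with *Car3* above 70 CPM, FC3 and FC5, had *Adipoq* at 12.6 and 9.34 CPM, and MM4 had it at 5.22 CPM.

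**Figure D5:**
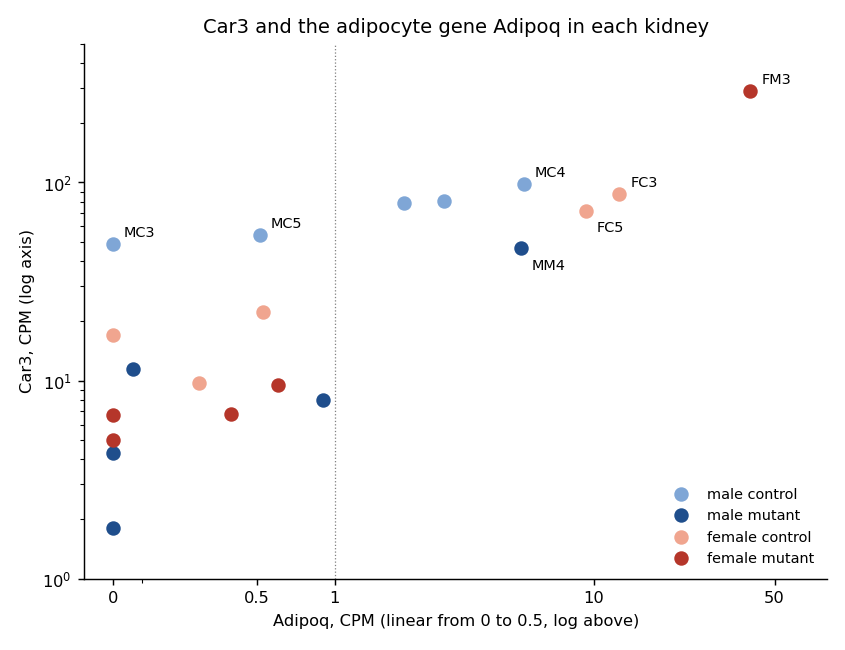
Car3 against Adipoq in each of the 20 kidneys, in CPM (Car3 on a log axis, Adipoq linear from 0 to 0.5 and log above). FM3 is highest in both, and left of the dotted line at 1 CPM of Adipoq the highest mice are the male controls MC3 and MC5.

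The patterns of the other 7 genes across the 20 mice were compared in the same way, as descriptions. The gene most like *Car4* was *Akr1c21* (r = 0.981), and the gene most like *Car12* was *Slc26a4* (0.951), which encodes an anion exchanger of intercalated cells. *Car14* was most like *Fggy* (0.954), followed by *Slc7a9* (0.933), the amino acid transporter of the proximal tubule. *Car2* was most like *Mpnd* (0.945), *Car5b* most like *Cyp2s1* (0.938), *Car15* most like *Klk1* (0.934), a gene of the distal nephron, and *Car13* most like *Fen1* (0.899), a gene of DNA replication.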

How the data were processed

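Kidney RNA of 20 mice was sequenced and the deposited values are whole-number counts per gene symbol, not normalized, which the authors obtained by trimming (fastp 0.23.2) and alignment against the mm10 genome (STAR 2.7.10b). The counting tool, annotation and strandedness are not given in the sources used here. Counts were fitted over the whole table in R 4.3.3 with edgeR 4.0.16 (TMM, filterByExpr, quasi-likelihood test, Benjamini-Hochberg adjustment over all genes, calls at an adjusted p under 0.01). Litter was a covariate, and the 6 groups of sex and litter in fits over both sexes. CPM used TMM library sizes, log2 CPM a prior count of 2, and RPKM the union of GENCODE M21 exons. Each library is a separate mouse. The fits were tested on simulated data. The genes, lists and named-gene rules (the 8 genes in every group, the 8 other family members, the 4 of 30 transport genes with the smallest joint p, the 3 genes most like each) were chosen with earlier results of these data known. One result under these rules is not reported here. Alternatives were RLE size factors, DESeq2 1.42.0, other filters on low counts, no litter term, 1 fit of all mice, each mouse left out, a prior count of 0.5 and longest-transcript lengths, and, added after seeing the data, leaving out FM3 and FM4 together and using mice with *Adipoq* under 1 CPM. Intervals cover the spread between mice at these depths, 11307741 to 19324073 counts per library.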

Additional observations from a re-analysis of the deposited data

Results flagged for a closer look

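In 32 groups of 5 mice (8 genes in 4 groups), the gap at the highest or lowest mouse was compared with the range. By Dixon's criterion this gap to the next mouse was unusually wide in 4. *Car3* is among them and was chosen for its values, so the number of flags cannot be set against chance. *Car3* was flagged in FM3 among female mutants, at 289 CPM against 5.04 to 9.49 CPM in the other 4. It was also flagged in MM4 among male mutants, at 46.8 CPM. Both libraries had the highest *Adipoq* of their group, 40.3 and 5.22 CPM. *Car5b* was flagged in FM4 among female mutants, at 123 CPM, the library with the fewest genes detected, and in MM5 among male mutants, at 79.4 CPM, which lay within the range of male controls. The part of fat RNA or of library quality in these values was not tested.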

How the results depend on the processing

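The counts of calls among the 7 tested genes were small and moved with the settings. In males 2 became 4 with DESeq2, 0 with all 20 mice in 1 fit and 0 to 5 with 1 mouse left out. With both sexes 3 became 1 to 6 with 1 mouse left out and 5 without both FM3 and FM4. In males against females, the 2 calls in controls became 4 with DESeq2 and 1 to 3 with 1 mouse left out, and the 1 call in mutants became 2 with DESeq2, 0 without a filter, 2 with all 20 mice in 1 fit, 2 without both FM3 and FM4 and 0 to 2 with 1 mouse left out. Calls over all genes moved with the settings too. In males 1185 of 14010 became 2016 of 15498 with DESeq2, 187 of 14161 without MC4 and 1863 of 14133 without MM2. With both sexes 2252 of 14191 became 2994 of 14274 without FM4. In males against females among mutants, 782 of 14416 became 1902 of 15641 with DESeq2 and 892 of 19355 without a filter. The cause was not tested, and a fit without a mouse also has fewer degrees of freedom. In females and for the sex-by-genotype term the count was 0 under every alternative.

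Signs turned for values of the 7 tested genes that were not called, and for *Car3*, which has no test. For *Car3*, -1.06 in males against females among mutants became 0.87 without FM3 and 0.81 without both FM3 and FM4, and 0.12 in female mutants against controls turned in 4 of 17 alternatives, to as low as -2.72 without both. In males against females among mutants, *Car12* (-0.01) became 0.0037 with DESeq2, 0.0070 without a filter, 0.060 without both FM3 and FM4 and -0.10 to 0.14 with 1 mouse left out, and *Car14* ranged from -0.46 to 0.0024. Among controls the ranges with 1 mouse left out were -0.039 to 0.0041 for *Car12*, -0.27 to 0.21 for *Car13* and -0.23 to 0.072 for *Car14*, and for *Car2* in male mutants against male controls -0.064 to 0.00069. The sex-by-genotype term with 1 mouse left out ranged from -0.16 to 0.18 for *Car4*, -0.063 to 0.23 for *Car12*, -0.34 to 0.19 for *Car14* and -0.13 to 0.23 for *Car15*. For *Car15* it was -0.068 without the litter term and -0.18 without both FM3 and FM4, where it was 0.021 for *Car14*.

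No paired analysis was possible because the replicate numbers were given in accession order and tie no mouse of one group to a mouse of another; litter is in the fits instead. Per length, the order of the 8 genes over all mice had 0 changes with longest-transcript lengths. *Car13* had as few as 21 counts in a library, which limits its precision.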
